A study of Mus musculus with 9 samples.

Results

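The mRNA levels of 7 genes encoding laminin-binding integrin subunits and the tetraspanins that accompany them were followed in differentiated C2C12 cells: Itga3, Itga6, Itga7, Itgb4, Cd151, Cd9 and Cd81. The genes were taken by name from the 52780 genes of the count table, and all 7 were among the 19545 genes with enough counts to be tested. C2C12 is a clonal line of immortal mouse myoblasts that fuse into myotubes when the medium is changed. Polyadenylated RNA was sequenced at day 4 of differentiation in 9 samples, with 3 in each of the groups si Ctrl, si mH2A1.2 and si mH2A1.1. The si Ctrl samples are called wild type by their labels. The study lists a scramble siRNA as control and gives 10 nM for all siRNAs. Whether these samples received it is not in the labels. In the 2 knockdown groups, siRNA against 1 of the splice isoforms of the histone variant macroH2A1 was delivered repeatedly at 10 nM, before and during differentiation. All groups were of the same line and time, and the study describes the replicates as biological and independent. The labels do not say whether they were separate cultures, and the p-values measure the spread between these samples.

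Integrins are heterodimers of an α and a β chain that link the extracellular matrix to the cytoskeleton. The products of Itga3, Itga6 and Itga7 pair with the β1 chain, encoded by Itgb1, to bind laminins of the basement membrane, and the α6 chain can instead pair with the β4 chain (Itgb4), which anchors hemidesmosomes in epithelia. The α7 chain is the main laminin-binding integrin subunit of mature skeletal muscle, where it acts beside the dystroglycan and dystrophin complex. Tetraspanins are small proteins with several membrane passes that gather integrins into patches of membrane. CD151 binds the laminin-binding integrins directly, and CD9 and CD81 form complexes with the immunoglobulin proteins EWI-F (Ptgfrn) and EWI-2 (Igsf8) and are known for roles in myoblast fusion.

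The samples held between 36924252 and 42223108 counts in all. Levels are given as CPM, the counts scaled to a common library size after TMM normalization, and 3 counts, the smallest amount taken as detected, correspond to 0.0691 to 0.0826 CPM. H2afy, the gene of both macroH2A1 isoforms, stood at 56.3, 62.4 and 61.0 CPM in si Ctrl, at 38.8, 30.01 and 30.9 CPM in si mH2A1.1 and at 46.8, 47.2 and 43.2 CPM in si mH2A1.2. It was lower with si mH2A1.1 (log2 fold change -0.85, adjusted p = 0.00331), and with si mH2A1.2 the samples lay below every control without passing the test (log2 fold change -0.39, adjusted p = 0.108). Counts per gene add up both isoforms, so the loss of 1 isoform was not checked by them. The 12 myotube markers summed to between 11856 and 19092 CPM in every sample, with Myh3, the embryonic myosin heavy chain, between 4305 and 8065 CPM. In these bulk samples, fewer cells of a type and less RNA per cell cannot be told apart.

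The proximal promoters were read to show what lies at the start of these genes. RefSeq sequence of GRCm38.p6, from 250 bases before to 50 bases after the start, was matched for 4 of the 7 genes: Itga3, Cd151, Cd9 and Cd81. Itga3 is shown because it was the gene among these 4 that passed a test of expression, and Cd9 because it passed none. Capitals mark the E-box CANNTG, a motif that reads the same on both strands and is the kind bound by the MyoD family, and the GC-box GGGCGG, searched on both strands, which is the kind bound by Sp1. The Itga3 window is chr11:95076665-95076964 and the Cd9 window chr6:125494711-125495010, both on the minus strand.
Itga3: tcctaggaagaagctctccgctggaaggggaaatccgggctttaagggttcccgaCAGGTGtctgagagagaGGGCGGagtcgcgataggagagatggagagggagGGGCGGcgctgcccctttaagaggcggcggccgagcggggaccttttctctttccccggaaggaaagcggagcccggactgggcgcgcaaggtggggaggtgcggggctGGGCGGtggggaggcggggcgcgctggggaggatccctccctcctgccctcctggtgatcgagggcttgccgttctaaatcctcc
Cd9: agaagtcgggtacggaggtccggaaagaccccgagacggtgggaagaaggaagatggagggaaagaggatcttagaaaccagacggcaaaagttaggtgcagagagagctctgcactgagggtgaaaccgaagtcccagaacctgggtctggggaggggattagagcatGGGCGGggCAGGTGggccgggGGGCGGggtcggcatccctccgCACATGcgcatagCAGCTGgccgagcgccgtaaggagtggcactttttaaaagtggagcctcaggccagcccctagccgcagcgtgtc

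The window of Itga3 held 1 E-box and 3 GC-boxes. That of Cd9 held 3 E-boxes and 2 GC-boxes, that of Cd151 1 and 2, and that of Cd81 1 and 3. An E-box was present in 72.3% and a GC-box in 35.7% of the 32851 promoter windows of this length. These matches describe letters of the sequence and are not sites of binding.

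Per length, the 7 genes spanned a wide range in si Ctrl. RPKM, the CPM per kilobase of merged exons, placed Itga7 highest at 231 ± 70.6 (SD, n = 3), followed by Cd81 at 186 ± 7.17, Cd9 at 136 ± 24.0, Cd151 at 49.9 ± 7.08, Itga6 at 27.2 ± 3.25, Itga3 at 15.7 ± 2.41 and Itgb4 at 0.266 ± 0.040. Itga7 and Cd81 overlapped between samples and were not separated by their spread, while every other pair of neighbours in this order was. The shared β chain gene Itgb1 was above them all at 335 ± 18.2 RPKM. The order of the 7 genes was the same with the longest annotated transcript as length, but Itga7 (364.9 to 627.9 RPKM) then overlapped Itgb1 (339 to 377.9 RPKM), with a higher mean, and no longer overlapped Cd81 (318 to 343 RPKM). Cd151 (61.8 to 81.9 RPKM) and Itga6 (50.5 to 64.1 RPKM) overlapped instead. Among the tested genes, 99.0% lay below Itga7 in mean RPKM, 98.7% below Cd81, 98.2% below Cd9, 95.1% below Cd151, 90.4% below Itga6 and 83.5% below Itga3. Itgb4 was near the bottom of the tested genes, with 18.1% below it.

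In si mH2A1.1 the order was the same and Itga7 no longer overlapped Cd81, with 326 ± 30.8 against 161 ± 18.3 RPKM (SD, n = 3). In si mH2A1.2 the positions of Itga3 and Itga6 were exchanged, at 18.8 ± 2.72 and 17.7 ± 1.80 RPKM, and these overlapped. That exchange depended on the exon length used, because with the longest annotated transcript Itga6 stayed above Itga3 there, at 32.6 to 39.3 against 19.6 to 25.7 RPKM.

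**Figure D1:**
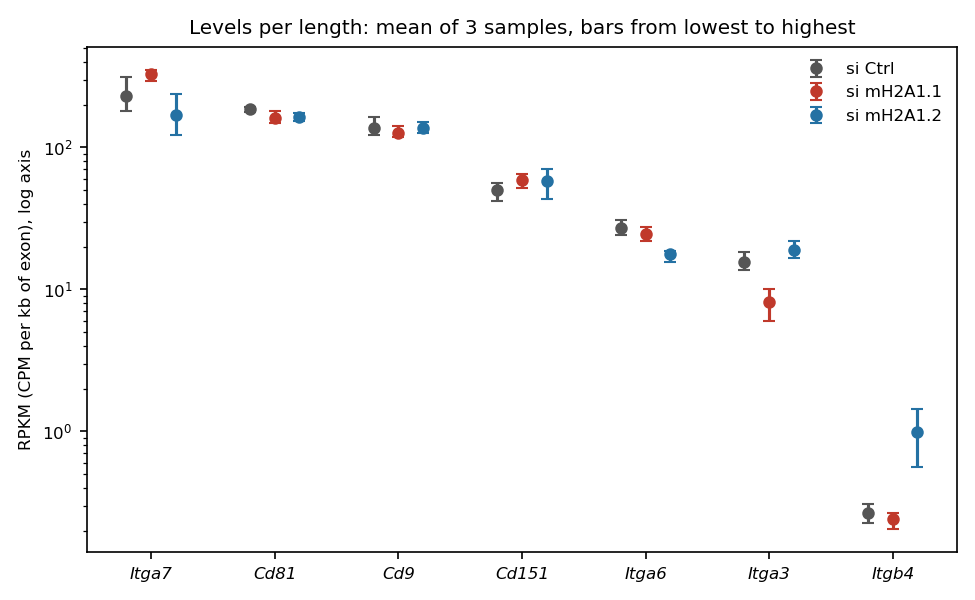
Level per length of each gene (RPKM, log axis), coloured by group. Points are means of 3 samples and bars run from the lowest to the highest sample. Itgb4, at 0.266 RPKM in si Ctrl, sits far below the other genes in every group.

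Itga3 encodes the α3 chain and lies on chromosome 11 of GRCm38, from 95044474 to 95076801 on the minus strand (ENSMUSG00000001507). Its level was 78.1, 105 and 85.8 CPM in si Ctrl, 34.4, 48.3 and 57.1 CPM in si mH2A1.1, and 102, 125 and 95.3 CPM in si mH2A1.2. All 3 si mH2A1.1 samples were below every other sample, whereas si mH2A1.2 and si Ctrl overlapped. With si mH2A1.1 Itga3 fell 1.92-fold against si Ctrl (edgeR log2 fold change -0.94, SE 0.19, adjusted p = 0.0142). It was the only called gene of the 7 in this comparison, in which 11.1% of all tested genes were called at an adjusted p of 0.05 or less (6.18% higher, 4.93% lower). The call was lost without si Ctrl replicate 2, with a log2 fold change of -0.82 and an adjusted p of 0.0608. Against si Ctrl, si mH2A1.2 gave a log2 fold change of 0.26 (SE 0.18, adjusted p = 0.546).

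Itga6 encodes the α6 chain and lies on the plus strand of chromosome 2, from 71745616 to 71858416 (ENSMUSG00000027111). Its samples gave 276, 244 and 218 CPM in si Ctrl, 215, 246 and 199 CPM in si mH2A1.1 and 168, 169 and 141 CPM in si mH2A1.2. The si mH2A1.2 samples were the 3 lowest of the 9, and the other groups overlapped. Itga6 fell 1.54-fold with si mH2A1.2 (log2 fold change -0.62, SE 0.13, adjusted p = 0.0363). In si mH2A1.1 its log2 fold change was -0.16 (SE 0.13, adjusted p = 0.433). The call with si mH2A1.2 was kept in 2 of the 9 fits that each left out 1 sample, those without si mH2A1.1 replicate 1 (adjusted p = 0.0481) or 2 (0.0367). It was lost without any sample of si Ctrl or si mH2A1.2 and without si mH2A1.1 replicate 3, with adjusted p-values up to 0.137, and the log2 fold change stayed between -0.71 and -0.53.

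Itga7 encodes the α7 chain and lies on the plus strand of chromosome 10, from 128933818 to 128958282 (ENSMUSG00000025348). Its level was 2524, 1467 and 1621 CPM in si Ctrl, 2838, 2719 and 2360 CPM in si mH2A1.1, and 1927, 1212 and 988 CPM in si mH2A1.2. The si Ctrl samples were widely spread, replicate 1 within the range of si mH2A1.1 and the other 2 within that of si mH2A1.2. Within each replicate number, Itga7 was higher with si mH2A1.1 and lower with si mH2A1.2 than in si Ctrl. With the replicate number as a block, the rise with si mH2A1.1 was called and the fall with si mH2A1.2 was not. Neither comparison with si Ctrl passed the main test, which had no block, with log2 fold changes of 0.50 for si mH2A1.1 (SE 0.26, adjusted p = 0.236) and -0.44 for si mH2A1.2 (SE 0.26, adjusted p = 0.460). The knockdown groups themselves did not overlap.

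Itgb4 encodes the β4 chain and lies on the plus strand of chromosome 11, from 115974709 to 116008412 (ENSMUSG00000020758). It was counted 69, 81 and 62 times in si Ctrl, 74, 75 and 62 times in si mH2A1.1, and 363, 260 and 146 times in si mH2A1.2. As CPM these counts were 1.85, 2.16 and 1.60 in si Ctrl, 1.83, 1.85 and 1.43 in si mH2A1.1, and 9.99, 6.78 and 3.92 in si mH2A1.2. Every si mH2A1.2 sample was above every other sample, and within that group replicate 1 was well above replicate 3. Itgb4 rose 3.69-fold with si mH2A1.2 (log2 fold change 1.88, SE 0.31, adjusted p = 0.0195). The values with si mH2A1.1 overlapped si Ctrl (log2 fold change -0.13, SE 0.32, adjusted p = 0.811).

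The Itgb4 call against si Ctrl was kept in 5 of the 9 fits with 1 sample left out. It was lost without si Ctrl replicate 1 (adjusted p = 0.0785) or 3 (0.0772) and without si mH2A1.2 replicate 1 (0.0544) or 2 (0.0677), and the log2 fold change ran from 1.52 to 2.16. The last 2 samples named are the highest in Itgb4. The long noncoding gene B230344G16Rik, not analysed here, shares 537 bases with Itgb4 exons on the opposite strand. Whether counting used the strand is not given in the sources used here, and without it reads of the 2 genes cannot be told apart there.

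Of the 7 genes, Itgb4 (higher) and Itga6 (lower) were called in si mH2A1.2 against si Ctrl, beside 2.35% of all tested genes (1.37% higher, 0.982% lower). With the replicate number as a block, 1005 genes were called in place of 460, and the same 2 genes of the 7 were called, Itgb4 at an adjusted p of 0.00811 and Itga6 at 0.0109. The fits with 1 sample left out did not use this block.

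The 3 tetraspanins were called in 0 of the comparisons by edgeR, DESeq2 and limma-voom, and 0 had an unadjusted p below 0.05. Cd151 (chromosome 7, 141467392 to 141471473, plus strand, ENSMUSG00000025510) stood at 153, 142 and 115 CPM in si Ctrl, 166, 177 and 142 CPM in si mH2A1.1 and 194, 167 and 118 CPM in si mH2A1.2. These groups overlapped, and the log2 fold changes against si Ctrl were 0.24 (SE 0.18, adjusted p = 0.392) and 0.23 (SE 0.18, adjusted p = 0.602).

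Cd9 (chromosome 6, 125460266 to 125494791, minus strand, ENSMUSG00000030342) stood at 249, 335 and 251 CPM in si Ctrl, 243, 287 and 243 CPM in si mH2A1.1 and 271, 308 and 256 CPM in si mH2A1.2. Replicate 2 was the highest of its group in all 3 groups. Against si Ctrl, si mH2A1.1 gave a value of -0.11 on the log2 scale (SE 0.14, adjusted p = 0.636), and the means with si mH2A1.2 and si Ctrl were both 278 CPM.

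Cd81 (chromosome 7, 143052739 to 143067934, plus strand, ENSMUSG00000037706) stood at 541, 551 and 511 CPM in si Ctrl, 424, 523 and 442 CPM in si mH2A1.1 and 461, 500 and 445 CPM in si mH2A1.2. All si mH2A1.2 samples were below all controls, yet the difference did not pass the test (log2 fold change -0.19, SE 0.11, adjusted p = 0.450). With si mH2A1.1 it was -0.21 (SE 0.11, adjusted p = 0.243), and replicate 2 lay among the controls.

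**Figure D2:**
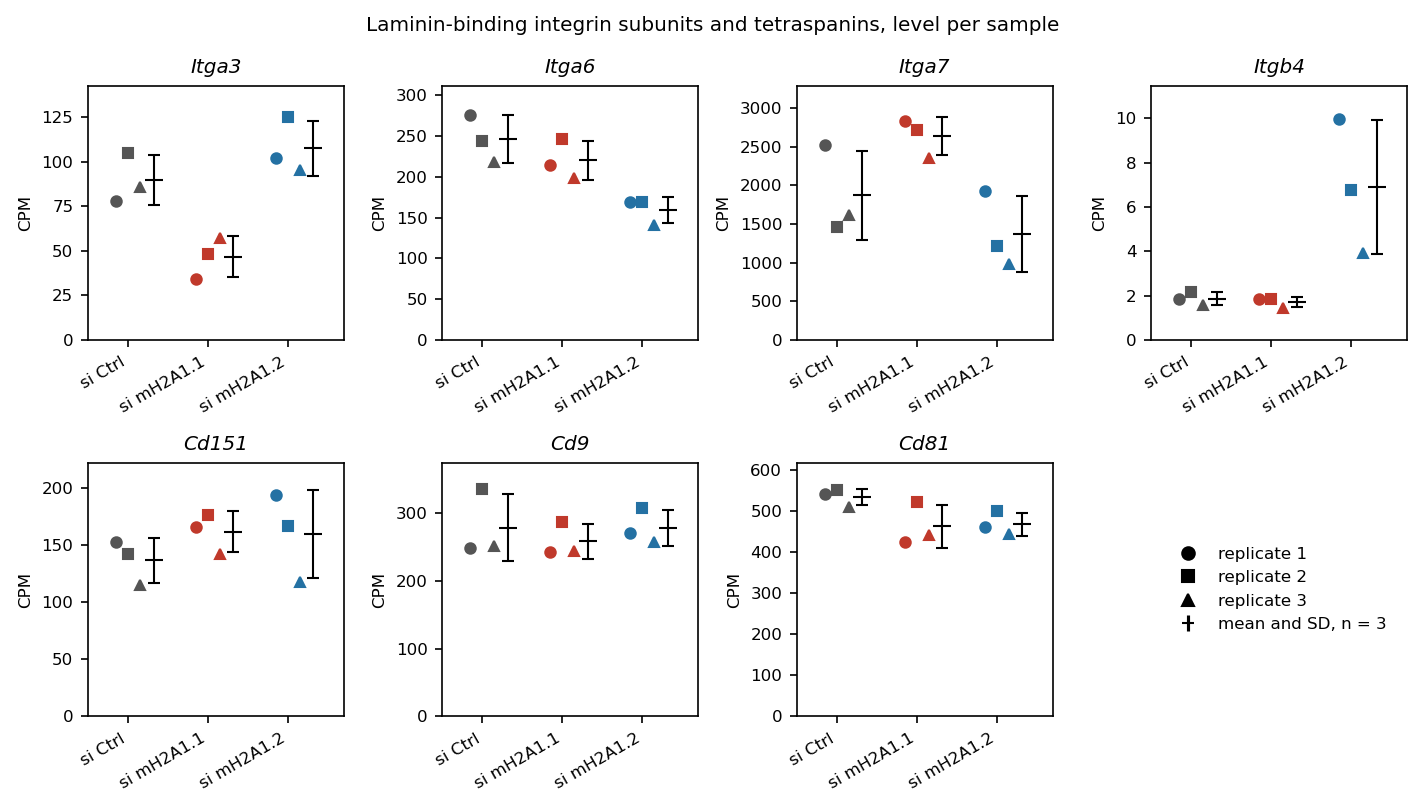
Level of each gene in every sample (CPM, axes from 0), by group, with the symbol giving the replicate number. The horizontal mark and bar are the mean and SD of 3 samples. Itga3 was lowest in the 3 si mH2A1.1 samples (34.4 to 57.1 CPM) and Itgb4 highest in the 3 si mH2A1.2 samples (3.92 to 9.99 CPM).

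Some genes share exon sequence with a gene on the opposite strand. Gm10575 covers 193 bases of Cd151 exons and held 76 to 144 counts per sample, against 4404 to 7171 for Cd151. R74862 covers 104 bases of Cd81 exons and held 142 to 246 counts, against 16553 to 21180 for Cd81. For Cd9 the overlap with Gm26728 was 218 bases and for Itga7 that with Mettl7b 9 bases, and these partners reached at most 6 and 11 counts.

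Groups without overlapping samples were found against si Ctrl for 1 of the 7 genes in si mH2A1.1 (Itga3) and for 3 in si mH2A1.2 (Itga6, Itgb4, Cd81). Over all tested genes this held for 34.2% and 22.5%. The median log2 fold change of the 7 genes was -0.13 in the si mH2A1.1 comparison and -0.00019 in that of si mH2A1.2. Over all tested genes the medians were -0.0091 and -8.3e-05. Both comparisons rest on the same si Ctrl samples, so their values are given side by side and were not set against each other.

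The direct comparison of the knockdown groups asked whether the isoforms differ in their effect on these genes. The α chain genes split, with Itga3 lower in si mH2A1.1 than in si mH2A1.2 and Itga6 and Itga7 higher, and Itgb4 was lower. Itga3 was 2.30-fold lower (log2 fold change -1.20, SE 0.19, adjusted p = 0.00213) and Itgb4 4.05-fold lower (log2 fold change -2.02, SE 0.31, adjusted p = 0.00211). Itga7 was 1.92-fold higher (log2 fold change 0.94, SE 0.26, adjusted p = 0.0293) and Itga6 1.38-fold higher (log2 fold change 0.46, SE 0.13, adjusted p = 0.0261). In all 4 genes the samples of the groups did not overlap, beside 39.7% of all tested genes. The 4 called genes of 7 stood beside 22.5% of all tested genes called, 12.0% higher and 10.5% lower.

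Cd151, Cd9 and Cd81 had log2 fold changes of 0.02 (SE 0.18), -0.11 (SE 0.14) and -0.02 (SE 0.11) between the knockdowns, with adjusted p-values of 0.955, 0.611 and 0.938. The calls of Itga3 and Itgb4 were kept in all 9 fits with 1 sample left out, with adjusted p-values of at most 0.0117 and 0.0128. The Itga6 call was lost without si mH2A1.1 replicate 1 (adjusted p = 0.0665) or 2 (0.0725) and without si mH2A1.2 replicate 2 (0.0653) or 3 (0.0911). The Itga7 call was lost without si mH2A1.1 replicate 1 (0.0961), 2 (0.0553) or 3 (0.0545) and without si mH2A1.2 replicate 2 (0.112) or 3 (0.0901).

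**Figure D3:**
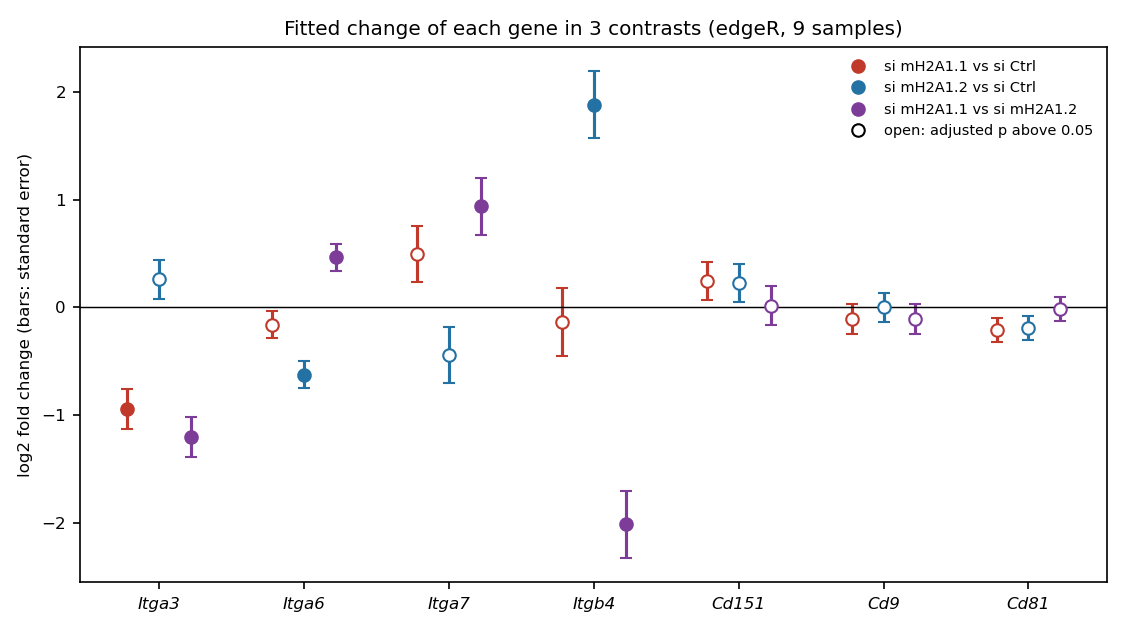
Fitted log2 fold change of each gene in the 3 comparisons, with bars of 1 standard error from edgeR over 9 samples. Filled points have an adjusted p of 0.05 or less: Itga3 with si mH2A1.1, Itga6 and Itgb4 with si mH2A1.2, and Itga3, Itga6, Itga7 and Itgb4 between the knockdowns.

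Since these chains share partners, the levels per length were also set against each other within each sample. The ratio of Itgb4 to Itga6 was 0.0086, 0.0114 and 0.0094 in si Ctrl, 0.0109, 0.0097 and 0.0092 in si mH2A1.1, and 0.0763, 0.0516 and 0.0359 in si mH2A1.2. Itgb4 thus remained a small fraction of Itga6 in every sample, and the si mH2A1.2 ratios were above all others. The ratio of Itga3 to Itga6 was 0.447, 0.681 and 0.623 in si Ctrl, 0.253, 0.310 and 0.454 in si mH2A1.1, and 0.954, 1.17 and 1.07 in si mH2A1.2. Here too si mH2A1.2 was above all other samples, while the highest si mH2A1.1 sample passed the lowest control.

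Itga7 made up most of the summed RPKM of Itga3, Itga6 and Itga7 throughout. Its share was 87.6%, 80.0% and 83.7% in si Ctrl, 92.2%, 90.4% and 90.1% in si mH2A1.1, and 86.7%, 78.7% and 79.1% in si mH2A1.2. The si mH2A1.1 samples had the 3 highest shares. The summed α chains per Itgb1 were 1.01, 0.715 and 0.716 in si Ctrl, 1.34, 1.09 and 0.940 in si mH2A1.1, and 0.764, 0.585 and 0.490 in si mH2A1.2, so that each knockdown overlapped si Ctrl but the knockdowns did not overlap each other. Within each replicate number this ratio was above that of si Ctrl with si mH2A1.1 and below it with si mH2A1.2. The size of these ratios depends on the exon length used, and with the longest transcript the means in si Ctrl were 0.0053 for Itgb4 to Itga6 (0.0098 with merged exons) and 0.327 for Itga3 to Itga6 (0.584), and the summed α chains per Itgb1 lay between 1.31 and 1.87 (0.715 to 1.01). The overlaps between groups were as described for all 3 with either length. These ratios come from levels already described and were not tested, since 3 samples against 3 cannot reach an exact permutation p below 0.1.

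**Figure D4:**
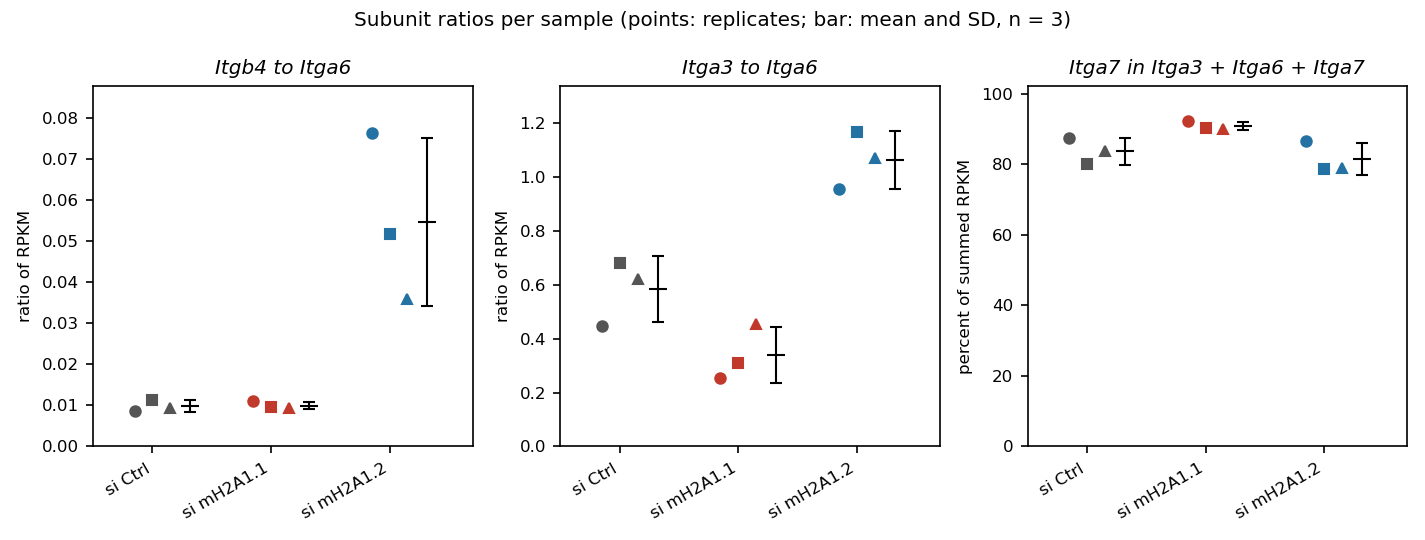
Ratios of RPKM within each sample: Itgb4 to Itga6, Itga3 to Itga6, and the percentage of Itga7 in the sum of Itga3, Itga6 and Itga7 (axes from 0). Points are samples, with circles, squares and triangles for replicates 1, 2 and 3, and bars are the mean and SD. The first 2 ratios were highest in si mH2A1.2 and the share of Itga7 in si mH2A1.1.

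The genes whose levels followed each member most closely over the 9 samples were picked by Pearson's r of log2 CPM among 14378 genes. For Itga3 these were Birc2, Nrp2 and Gm44997 (all r = 0.98), for Itga7 Pnmal2, Spon1 and Sytl2 (all 0.98), and for Itgb4 Ctrb1 (0.99), Fkbp10 and Lhfpl2 (both 0.98). For Itga6 they were 4930523C07Rik (0.98), Cox17 (0.97) and Krt13 (0.96). The tetraspanins had Fbxl12os (0.98), Il18 and Zfp110 (both 0.97) for Cd151, Nid1 (0.94), Cyp39a1 (0.93) and Rab4b (0.91) for Cd9, and Clic3 (0.97), Ngrn and Tmem220 (both 0.96) for Cd81. Among the 7 genes themselves the lowest r was that of Itga3 with Itga7 (-0.79) and the highest that of Itga6 with Itga7 (0.67). With 9 samples in 3 groups and so many genes, values this high describe these libraries, which share depth and treatment, and no test was made.

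The β1 chain and the EWI proteins are the direct partners of these receptors. Itgb1 was between 1158 and 1467 CPM in all samples and its log2 fold changes were -0.05, -0.0066 and -0.05 in the 3 comparisons, with adjusted p-values of at least 0.809. Ptgfrn stood at 318, 430 and 376 CPM in si Ctrl, 234, 353 and 316 CPM in si mH2A1.1 and 477, 484 and 441 CPM in si mH2A1.2. It was lower in si mH2A1.1 than in si mH2A1.2 (log2 fold change -0.64, SE 0.16, adjusted p = 0.0191), a call kept in 7 of 9 fits with 1 sample left out and otherwise at an adjusted p of up to 0.0686. Neither comparison with si Ctrl was called for Ptgfrn (adjusted p = 0.217 and 0.372), and Igsf8, at 37.6 to 60.3 CPM, was called by edgeR in none.

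Among the ligands, 14 laminin chains and linkers of the laminin network were tested. Of all tested genes, edgeR called 11.1% in si mH2A1.1 and 2.35% in si mH2A1.2 against si Ctrl, and 22.5% between the knockdowns. With si mH2A1.1 Lamb2, the β2 chain, fell from 305, 270 and 240 CPM in si Ctrl to 142, 207 and 169 CPM (log2 fold change -0.66, adjusted p = 0.0330). In that comparison edgeR called 1 ligand, limma-voom 2 and DESeq2 5, and 5 had an unadjusted p below 0.05. The edgeR call of Lamb2 was kept in 3 of the 9 fits with 1 sample left out, over which the count of called ligands ran from 0 to 2. In si mH2A1.2 against si Ctrl edgeR and limma-voom called 0 and DESeq2 2, and 2 had an unadjusted p below 0.05. Between the knockdowns 1 was higher and 3 lower in si mH2A1.1. Nid2, the basement membrane linker nidogen-2, was among the lower (170, 193 and 218 CPM against 460, 486 and 465 CPM, log2 fold change -1.28, adjusted p = 0.00168), as was Lamb2 (log2 fold change -0.64, adjusted p = 0.0203). With 1 sample left out, 1 to 5 were called, and the call of Nid2 was kept in all 9 fits while that of Lamb2 was kept in 5. The other 2, Lama1 and Lama3, averaged below 1 CPM and are named after their values were seen. Apart from Lamb2, the chains of muscle basement membrane laminins followed by name were Lama2, Lama5, Lamb1 and Lamc1. These others were called in no comparison by edgeR and limma-voom. DESeq2 called Lamb1 in 2 of them, higher in si mH2A1.2 than in si Ctrl (edgeR log2 fold change 0.41, adjusted p = 0.0873 by edgeR and 0.0108 by DESeq2) and lower in si mH2A1.1 than in si mH2A1.2 (-0.31, adjusted p = 0.0694 and 0.0420). The median log2 fold changes of the 14 genes were -0.24, -0.03 and -0.29 for si mH2A1.1 and si mH2A1.2 against si Ctrl and for the knockdowns against each other.

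The other laminin receptors and the dystrophin complex comprised 13 genes, of which 2 fell with si mH2A1.2 and 6 differed between the knockdowns (4 higher and 2 lower in si mH2A1.1). In these comparisons 2.35% and 22.5% of all tested genes were called, and 11.1% with si mH2A1.1 against si Ctrl. In si mH2A1.1 against si Ctrl 0 were called by edgeR and by limma-voom, 4 by DESeq2, and 5 had an unadjusted p below 0.05. Dag1, dystroglycan, ranged from 618 to 873 CPM and was called by edgeR in none. Bcam, a laminin α5 receptor of the immunoglobulin family, stood at 37.1, 26.7 and 34.4 CPM in si Ctrl, 51.5, 49.4 and 44.9 CPM in si mH2A1.1 and 29.9, 18.8 and 19.6 CPM in si mH2A1.2, and differed between the knockdowns (log2 fold change 1.09, adjusted p = 0.00321). Sntb1, the dystrophin-bound β1-syntrophin, was also higher in si mH2A1.1 there (log2 fold change 1.06, adjusted p = 0.000964). Sntb1 and the β-sarcoglycan gene Sgcb fell with si mH2A1.2 (log2 fold changes -0.63 and -0.58, adjusted p = 0.0489 and 0.0280), calls that were kept in 1 and 3 of the 9 fits with 1 sample left out. With 1 sample left out, 0 to 2, 0 to 2 and 2 to 7 genes of the list were called. Its medians were -0.16, -0.06 and -0.02.

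Of 24 genes listed as other integrin subunits, 21 were tested. The list includes Itgbl1, which encodes an integrin β-like protein and not a subunit. With si mH2A1.1, 2 rose and 5 fell. In si mH2A1.2 against si Ctrl 4 rose, and between the knockdowns 3 were higher and 8 lower in si mH2A1.1. Itgbl1 was among the 4 that rose (log2 fold change 1.70, adjusted p = 0.0378, kept in 1 of 9 fits with 1 sample left out). It was also among the 8 that were lower (log2 fold change -2.47, adjusted p = 0.00168). The shares of all tested genes called in these 3 comparisons were 11.1%, 2.35% and 22.5%. The collagen-binding α11 chain gene Itga11 stood at 7.17, 13.5 and 17.6 CPM in si Ctrl, 0.519, 2.00 and 1.80 CPM in si mH2A1.1 and 48.8, 39.3 and 53.4 CPM in si mH2A1.2. The groups were fully apart, with log2 fold changes of -3.15 (adjusted p = 0.00383), 1.88 (0.0347) and, between the knockdowns, -5.03 (0.000199). Itga10, which also encodes a collagen-binding α chain, fell with si mH2A1.1 (log2 fold change -2.66, adjusted p = 0.00421), and Itgb7, a β chain of leukocyte integrins, rose (log2 fold change 2.38, adjusted p = 0.0206) at levels from 2.54 to 9.19 CPM. Itgb5, a β chain of vitronectin receptors, rose with si mH2A1.2 (log2 fold change 0.72, adjusted p = 0.0280). With 1 sample left out the counts of called genes ran from 2 to 10, from 0 to 5 and from 10 to 13, and the calls of Itga11 and Itgb5 with si mH2A1.2 were kept in 2 and 4 of 9 fits, that of Itgb7 with si mH2A1.1 in 5. The medians of the list were -0.25, 0.05 and -0.10.

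The 23 other tetraspanins and EWI genes gave 3 rises in si mH2A1.1, 1 rise in si mH2A1.2, and 6 higher and 3 lower genes between the knockdowns. They stood beside 11.1%, 2.35% and 22.5% of all tested genes called. Tspan12 rose with si mH2A1.1 from 23.9, 25.3 and 25.5 CPM to 46.4, 36.2 and 42.1 CPM (log2 fold change 0.74, adjusted p = 0.00492). Tspan8, a tetraspanin known from epithelial tumours, stood at 1.95, 3.06 and 1.99 CPM in si Ctrl, 0.519, 1.68 and 1.36 CPM in si mH2A1.1 and 26.0, 13.1 and 7.84 CPM in si mH2A1.2. Its si mH2A1.2 samples were above all others and in the same order of replicates as those of Itgb4. It rose with si mH2A1.2 (log2 fold change 2.74, adjusted p = 0.0216), a call kept in 5 of 9 fits with 1 sample left out. The abundant Cd63 and Cd82, at 591 to 831 and 291 to 537 CPM, were called by edgeR in none. Counts over the same fits ran from 1 to 4, from 0 to 1 and from 3 to 9, and the medians were 0.15, -0.05 and 0.12.

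**Figure D5:**
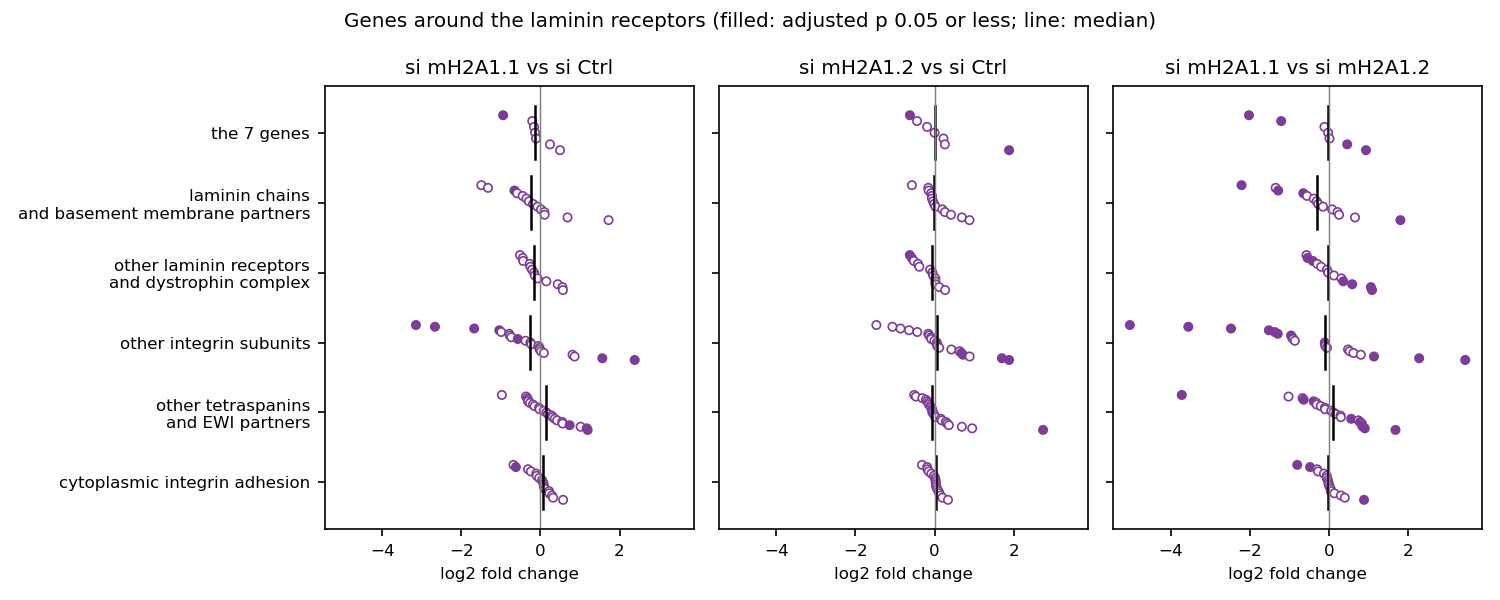
Log2 fold change of each tested gene in 6 groups of genes, in the 3 comparisons. Filled points have an adjusted p of 0.05 or less and vertical lines are medians, which lie between -0.29 and 0.15 in the 5 groups around the 7 genes.

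Inside the cell, 17 of 18 genes of the integrin adhesion machinery were tested. Itgb1bp2, the muscle protein melusin that binds the β1 tail, fell with si mH2A1.1 from 145, 147 and 191 CPM to 99.6, 98.1 and 116 CPM (log2 fold change -0.62, adjusted p = 0.0213), and it was the 1 gene of the list called by edgeR and by limma-voom. DESeq2 called 2 there, and 5 had an unadjusted p below 0.05. In si mH2A1.2 against si Ctrl edgeR and limma-voom called 0 and DESeq2 1, and 1 had an unadjusted p below 0.05. Between the knockdowns Fermt2 (kindlin-2, an integrin activator, log2 fold change -0.80, adjusted p = 0.0172) and Itgb1bp2 (-0.47, adjusted p = 0.0325) were lower in si mH2A1.1 and Lims2 (PINCH-2, a partner of integrin-linked kinase) was higher (0.89, adjusted p = 0.0492). These calls were kept in 7, 6 and 1 of the 9 fits with 1 sample left out, that of Lims2 only without si Ctrl replicate 2, and the Itgb1bp2 call with si mH2A1.1 in 7. With 1 sample left out the counts ran from 0 to 2 with si mH2A1.1 and from 0 to 3 between the knockdowns.

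Since the β4 chain is the integrin of hemidesmosomes, the partners it has there were followed beside it. Plec and Dst, which encode the linkers plectin and dystonin, were abundant at 1110 to 1851 and 1087 to 1820 CPM, and Col17a1 was low at 1.32 to 3.06 CPM. By edgeR 0 of these 3 were called in any comparison. The keratin gene Krt14 stood at 2.73, 2.29 and 0.902 CPM in si Ctrl, 0.840, 0.815 and 0.576 CPM in si mH2A1.1 and 17.5, 6.91 and 2.50 CPM in si mH2A1.2. Its replicates in si mH2A1.2 had the order of those of Itgb4, and replicate 3 lay within the range of si Ctrl. Krt14 differed between the knockdowns (log2 fold change -3.59, adjusted p = 0.00507) and did not pass the edgeR test in si mH2A1.2 against si Ctrl (log2 fold change 2.18, adjusted p = 0.102). Krt5, which encodes the usual partner of that keratin, had 1 count in each si mH2A1.2 sample and 0 in the other 6, below the limit of detection. Over these 5 genes, edgeR called 1 between the knockdowns and DESeq2 and limma-voom 2. In si mH2A1.2 against si Ctrl edgeR and limma-voom called 0 and DESeq2 1. Of all tested genes, edgeR called 22.5% and 2.35% in these comparisons.

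Markers of other cells that could express Itgb4 or the tetraspanins were followed as well. Of 16 epithelial, endothelial, Schwann and immune markers, 8 passed the filter on low counts, Krt18 was at 0 in every sample, and Epcam and Adgre1 had 1 count in 1 sample. The 16 genes summed to 16.9 to 18.2 CPM in si Ctrl, 20.9 to 26.5 CPM in si mH2A1.1 and 23.6 to 42.7 CPM in si mH2A1.2. Trp63, a transcription factor of basal epithelium, was at 15.7, 11.9 and 14.1 CPM in si mH2A1.2 against 8.46, 6.48 and 9.31 CPM in si Ctrl (log2 fold change 0.78, adjusted p = 0.0382, kept in 1 of 9 fits with 1 sample left out). Cd68, a lysosomal marker of macrophages, was higher in si mH2A1.1 (10.6, 5.73 and 11.1 CPM against 2.73, 3.62 and 2.58 CPM, log2 fold change 1.62, adjusted p = 0.00565), while the leukocyte marker Ptprc had at most 9 counts. The part of these markers in the changes of Itgb4 and Itga3 was not tested.

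Markers of differentiation were also followed. Of 12 myotube markers, 1 rose and 3 fell in si mH2A1.1, 3 fell in si mH2A1.2, and between the knockdowns 4 were higher and 2 lower in si mH2A1.1. The shares of all tested genes called there were 11.1%, 2.35% and 22.5%. With 1 sample left out the counts of called markers ran from 0 to 4, from 1 to 3 and from 2 to 6. Actn2, the sarcomeric α-actinin-2, fell from 192, 170 and 179 CPM in si Ctrl to 86.1, 132 and 105 CPM in si mH2A1.1 and 81.4, 72.9 and 72.3 CPM in si mH2A1.2 (log2 fold changes -0.74 and -1.25, adjusted p = 0.0125 and 0.00631, kept in 8 and 9 of 9 fits). Mymx, the fusion peptide myomixer, fell with si mH2A1.1 (log2 fold change -0.82, adjusted p = 0.0221, kept in 5 of 9 fits). The marker that rose with si mH2A1.1 was Myh1, an adult fast myosin heavy chain (log2 fold change 1.26, adjusted p = 0.0378, kept in 3 of 9 fits). It fell with si mH2A1.2 (log2 fold change -1.76, adjusted p = 0.0296, kept in 3 of 9 fits). It stood at 611, 263 and 646 CPM in si Ctrl, 977, 1214 and 1451 CPM in si mH2A1.1 and 187, 99.9 and 163 CPM in si mH2A1.2. Its groups did not overlap, and between the knockdowns its log2 fold change was 3.02 (adjusted p = 0.000539). The summed marker level was 13362 to 19092 CPM in si Ctrl, 12301 to 14169 CPM in si mH2A1.1 and 11856 to 14748 CPM in si mH2A1.2.

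Markers of proliferating myoblasts summed to 373 to 566 CPM in si Ctrl, 519 to 995 CPM in si mH2A1.1 and 308 to 418 CPM in si mH2A1.2. Of all tested genes, edgeR called 11.1% in si mH2A1.1 and 2.35% in si mH2A1.2 against si Ctrl, and 22.5% between the knockdowns. All 11 markers were called between the knockdowns, 9 higher and 2 lower in si mH2A1.1, beside 4 to 11 when 1 sample was left out. Among them the cyclin gene Ccna2 had a log2 fold change of 1.36 (adjusted p = 0.00687) and Pax7, the marker of muscle stem cells, one of 1.32 (adjusted p = 0.00811). Against si Ctrl, edgeR and limma-voom called 0 of the 11 in si mH2A1.1, DESeq2 called 5, and 8 had an unadjusted p below 0.05. In si mH2A1.2 Myf5, a myogenic factor of myoblasts, was called lower (log2 fold change -0.84, adjusted p = 0.0422), a call lost in each of the 9 fits with 1 sample left out. Whether these differences had a part in the values of Itga3, Itga6, Itga7 and Itgb4 was not tested.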

How the data were processed

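RNA-seq of C2C12 cells at day 4 of differentiation was analysed in 9 samples, 3 per group. Single reads with an average of 50 bp were quantified by the authors with Salmon in quasi-mapping mode on GRCm38 and imported through tximport. The deposited table holds expected counts, estimated reads given as whole numbers and not normalized. The annotation release and the strandedness of counting are not given in the sources used here. A second deposited table of size-factor normalized values was not used. Groups and replicate numbers were read from the labels. The 7 genes and the 9 gene lists were chosen with earlier results of these data known. The values of 1 listed gene are not reported here, and it was left out of its list's counts.

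Genes were named by GENCODE M21 (52762 of 52780). Counts were tested with edgeR 4.0.16 in R 4.3.3 (TMM, filterByExpr, quasi-likelihood test in its legacy form, 9 samples in 1 model, 3 contrasts). P-values were adjusted by Benjamini-Hochberg over 19545 genes, and 0.05 or less was called. The SE was taken as the log2 fold change over the root of F. The scripts were tested on simulated data. Named besides the 7 genes were H2afy, fixed partners, up to 3 called genes of at least 1 CPM per list and contrast with the largest change, and the 3 genes most like each member. RPKM used merged GENCODE exons.

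Alternatives were DESeq2 1.42.0, its size factors in edgeR, no filter, at least 10 counts in every sample, a replicate block, the newer quasi-likelihood form, only the groups compared, limma-voom (limma 3.58.1), a stricter threshold, each sample left out, and the longest transcript as length. The labels give each group replicates 1 to 3. Deviations from the group means correlated between samples of the same number of si Ctrl and si mH2A1.2 with r from 0.196 to 0.331, so these numbers pair the samples. For si mH2A1.1 with si Ctrl r was 0.0841 to 0.0976 and with si mH2A1.2 0.0917 to 0.116. Between samples of different number r was -0.267 to 0.0358, -0.0739 to -0.0213 and -0.0961 to -0.0122 for these pairs of groups, in that order. The main test and the fits with 1 sample left out did not use the pairing. Totals of 36924252 to 42223108 counts set the depth, and floors of 3 counts cover counting error only. Figures were drawn with matplotlib 3.10.9.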

Additional observations from a re-analysis of the deposited data

How the results depend on the processing

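Over the settings other than leaving out a sample, 161 of 168 values of the 7 genes kept their direction and side of the threshold. With the replicate block, Itga7 was also called with si mH2A1.1 against si Ctrl (log2 fold change 0.54, adjusted p = 0.0474), so 2 genes of the 7 were called. Called genes among all tested rose from 2171 to 4065 there and from 4397 to 5674 between the knockdowns. Samples of the same number correlated more weakly in the comparisons of si mH2A1.1 than between si Ctrl and si mH2A1.2. The block changed no other call of the 7. With only the 2 groups compared, 1 of the 7 was called with si mH2A1.2, Itga6 being lost at an adjusted p of 0.0584. In the edgeR fit the stricter threshold (0.01 for the adjusted p, 0.8 for the absolute log2 fold change) left 0, 0 and 2 of the 7. The last were Itga3 and Itgb4 between the knockdowns, and 352, 35 and 1247 of all tested genes were left. By DESeq2 this threshold left 992, 370 and 1911 genes, and the 7 were not counted there. Itga3 with si mH2A1.1 was within it by DESeq2 (log2 fold change -0.94, adjusted p = 9.6e-05). Against si Ctrl DESeq2 called 3354 genes for si mH2A1.1 (edgeR 2171) and 1096 for si mH2A1.2 (edgeR 460), with the same genes of the 7.

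The near-zero change of Cd9 with si mH2A1.2 turned its sign without a filter (0.0014), with 10 counts in every sample (0.00013), with the block (0.0088), with only 2 groups (0.0079) and with limma-voom (0.0092), and that of Itgb1 with only 2 groups (0.00093). With the longest transcript as length, the RPKM in si Ctrl was 18.4 for Itga3, 57.0 for Itga6, 465 for Itga7, 73.3 for Cd151, 227 for Cd9 and 332 for Cd81.

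With 1 sample left out, 0 to 1, 0 to 2 and 2 to 4 of the 7 genes were called in si mH2A1.1 and si mH2A1.2 against si Ctrl and between the knockdowns, and 155 of 189 values kept direction and call. Log2 fold changes that turned sign in some of these fits ran, with si mH2A1.1, from -0.20 to 0.042 for Cd9, -0.10 to 0.038 for Itgb1, -0.097 to 0.18 for Lama2 and -0.13 to 0.028 for Lamc1. With si mH2A1.2 they ran from -0.082 to 0.16 for Cd9, -0.068 to 0.034 for Itgb1, -0.11 to 0.17 for Dag1, -0.32 to 0.096 for Lama2, -0.12 to 0.063 for Lama5 and -0.13 to 0.11 for Lamb2. Between the knockdowns they ran from -0.16 to 0.18 for Cd151, -0.11 to 0.042 for Cd81, -0.094 to 0.037 for Itgb1 and -0.064 to 0.33 for Lama2. The causes were not tested. Depth limits Itgb4 most, with 62 to 81 counts per sample outside si mH2A1.2.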

Other observations

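The genes within 100 kb of each of the 7 genes were counted as a further description, and the neighbours named here were chosen after their values were seen. Col1a1, the gene of the collagen I α1 chain, lies 91432 bp from Itga3 and was among its 8 tested neighbours. It fell with si mH2A1.1 (edgeR log2 fold change -2.38, SE 0.37, adjusted p = 0.00558) and was lower in si mH2A1.1 than in si mH2A1.2 (-3.79, adjusted p = 0.00035), as Itga3 was. Sgca, at 68147 bp from Itga3, was higher in si mH2A1.1 than in si mH2A1.2 (0.59, adjusted p = 0.0335), a call kept in 4 of 9 fits with 1 sample left out and lost, at adjusted p-values up to 0.131, without any sample of si mH2A1.1 or without si mH2A1.2 replicate 2 or 3. No other neighbour of Itga3 was called. Of all tested genes, 11.1% were called with si mH2A1.1 against si Ctrl and 22.5% between the knockdowns. Of the 12 tested neighbours of Itgb4, 2 fell with si mH2A1.1, Sap30bpos (-1.20, adjusted p = 0.0180) and Unc13d (-0.62, adjusted p = 0.0195). In that comparison 4.93% of all tested genes were called lower. Both were also lower in si mH2A1.1 than in si mH2A1.2 (-1.38, adjusted p = 0.00474, and -0.62, adjusted p = 0.00984). Itgb4 itself was not called with si mH2A1.1 against si Ctrl. In si mH2A1.2 against si Ctrl, where Itgb4 was called higher, 0 of these 12 neighbours were called, beside 2.35% of all tested genes. Neighbours of Cd151, Cd81, Cd9 and Itga7 were also called in some comparisons and are not named here.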
